A study of Homo sapiens with 9 samples.

Results

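The 53 genes described here encode the machinery that copies the genome in S phase, together with factors that let cells enter it. They were taken from a list of gene symbols, each matched to probe sets that carry exactly 1 symbol, and all 53 were found among the 18417 genes measured. They fall into licensing of origins (11 genes), firing of origins (8), polymerases and the sliding clamp (14), fork protection and strand processing (10), chromatin assembly (3) and S phase entry (7). No measured value was used to choose them, although results of these data were known when the list was drawn up.

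Total RNA was hybridised to Affymetrix Human Gene ST arrays, 9 in all, in 3 groups of 3. Every group was IMR90 ER:RAS, a line of human lung fibroblasts that carries oncogenic RAS joined to the hormone-binding domain of the oestrogen receptor. The fusion becomes active when 4-hydroxytamoxifen (4OHT) is added. Sustained RAS signalling then leads to oncogene-induced senescence (OIS), a lasting arrest of the cell cycle. Cells of the vector-4OHT group had an empty vector but no 4OHT, cells of the vector+4OHT group carried the same vector and received 100 nM 4OHT, and cells of the shARID1B+4OHT group carried a short hairpin RNA against ARID1B and received 100 nM 4OHT. The labels give day 6 after 4OHT and 7 days of growth for all groups. They do not state which hairpin or how many were used. No group had a control hairpin, the hairpin without 4OHT, or 4OHT without ER:RAS, so effects of the drug and of RAS, or of ARID1B loss and of carrying a hairpin, cannot be told apart. A figure legend of the study calls the arrays biological replicates, but the labels do not say that they came from separate cultures, and p-values may therefore measure only technical spread between these samples.

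Replication is prepared in G1, when the origin recognition complex, CDC6 and CDT1 load the MCM2-7 helicase onto origins. In S phase the CDC7-DBF4 kinase and cyclin-dependent kinases convert this helicase into an active one by adding CDC45 and the GINS complex, after which polymerases alpha, epsilon and delta synthesise DNA with the PCNA clamp. Most of these genes are known targets of E2F transcription factors, which the retinoblastoma protein holds in check in arrested and senescent fibroblasts.

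Because E2F sites are a known feature of these promoters, the 5' ends of the genes were searched in RefSeq (GRCh38.p14) for 4 E2F words, TTTCCCGC and TTTCGCGC and TTTGCCGC and TTTGGCGC, on both strands. Windows ran from 250 bases before to 50 bases after a transcript start, and overlapping words were counted separately. A window was held for 44 of the 53 genes. At least 1 E2F word lay in 26 of these 44 genes (59.1%), against 1090 of all 27305 genes in the table (3.99%). Of the members' 36 words, 29 (80.6%) began within 100 bases before the start or after it, against 50.2% of the 1219 words in all windows. The CCAAT box, searched as CCAAT on both strands, was present in 27 of the 44 genes (61.4%) and in 39.7% of all genes. Of the cell cycle homology region, the words TTTGAA and TTCGAA on both strands were found in 2 of 44 genes (4.55%) and in 19.5% of all genes. Of the 51 further replication genes described below, 44 had a window. Among these an E2F word was present in 20.5%, the CCAAT box in 59.1% and a homology region word in 20.5%. The promoters of MCM4, MCM5, GINS4, POLD3, DSCC1, RPA2, RPA3, E2F8 and CCNE2 were not analysed here.

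Stretches of 170 bases, from 160 bases before the start to 10 bases from it, are shown for 4 genes called lower in OIS, by at least 2-fold as measured, that held a word, and for the 2 uncalled genes with the smallest changes. Capitals mark E2F words. Those of POLE2 (chr14:49688205-49688374, minus strand) and CLSPN (chr1:35769969-35770138, minus strand) began 5 bases before the start, and that of GINS2 (chr16:85688945-85689114, minus strand) 31 bases before it. The MCM6 promoter (chr2:135876434-135876603, minus strand) held 4 words at 2 places, where a word on 1 strand overlapped a word on the other. CHAF1A (chr19:4402480-4402649, plus strand) had no such word in its stretch, and POLA2 (chr11:65261802-65261971, plus strand) had 1 that began 53 bases before the start.
POLE2: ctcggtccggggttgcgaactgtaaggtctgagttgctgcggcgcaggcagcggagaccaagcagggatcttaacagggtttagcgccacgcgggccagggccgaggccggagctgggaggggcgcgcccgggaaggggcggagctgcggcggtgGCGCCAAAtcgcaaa
CLSPN: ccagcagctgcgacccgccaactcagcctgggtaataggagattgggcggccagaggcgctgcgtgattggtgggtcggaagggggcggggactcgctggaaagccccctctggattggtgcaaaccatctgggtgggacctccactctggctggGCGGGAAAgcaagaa
GINS2: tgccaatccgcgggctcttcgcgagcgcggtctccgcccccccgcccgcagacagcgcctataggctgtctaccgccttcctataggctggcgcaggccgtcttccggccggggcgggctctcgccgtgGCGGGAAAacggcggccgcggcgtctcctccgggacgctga
MCM6: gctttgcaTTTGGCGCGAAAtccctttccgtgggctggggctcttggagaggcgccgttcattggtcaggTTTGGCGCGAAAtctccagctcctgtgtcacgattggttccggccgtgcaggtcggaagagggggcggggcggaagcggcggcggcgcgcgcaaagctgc
CHAF1A: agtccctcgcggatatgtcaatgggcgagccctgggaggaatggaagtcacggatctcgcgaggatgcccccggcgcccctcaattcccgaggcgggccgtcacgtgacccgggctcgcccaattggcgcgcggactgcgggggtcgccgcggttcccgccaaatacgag
POLA2: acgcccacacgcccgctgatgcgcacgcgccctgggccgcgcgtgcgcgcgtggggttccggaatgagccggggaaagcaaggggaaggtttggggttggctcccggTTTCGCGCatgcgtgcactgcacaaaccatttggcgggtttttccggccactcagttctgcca

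E2F words were found in genes of either kind. A word was present in 16 of the 27 genes with a window that were lower in OIS (59.3%), in 10 of the 15 that were not called (66.7%) and in 0 of the 2 that were higher. The difference between these shares was not tested. A match describes these letters and does not show that a factor binds there.

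**Figure D1:**
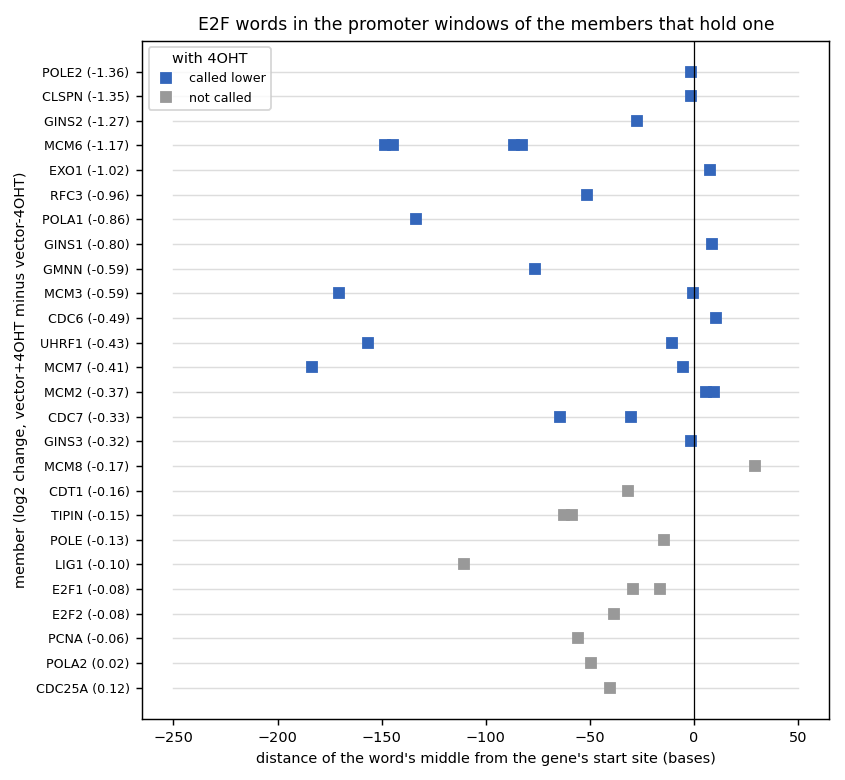
Position of each E2F word in the promoter windows of the members that hold one, as the distance in bases of the word's middle from the transcript start (x axis), with 1 gene per line ordered by its log2 change in OIS (in brackets) and coloured by call. Words at the same place on both strands are drawn once or overlap. Windows of a gene with several starts are overlaid. Most words, 29 of 36, began within 100 bases before the start or after it.

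Median log2 values per array lay between 6.70 and 6.79. Between arrays, r over probe sets (which are not replicates) was 0.9955 to 0.9972 within groups and 0.9874 to 0.9956 between groups. All 10 fibroblast markers lay above the median of all values (6.75, below which a value was not taken as above background) in every group, with array means of 11.15 to 11.26 in vector-4OHT, 10.79 to 10.86 in vector+4OHT and 10.84 to 10.90 in shARID1B+4OHT cells. Of these 10 markers 8 were lower in OIS, DCN by a log2 change of -1.60, and with the hairpin 1 was higher (DCN, 0.65, adjusted p = 0.000104) and 2 lower. All 7 measured leukocyte markers lay below 6.75 in every group, as did 5 of 8 endothelial markers, of which 1 was lower and 1 higher in OIS, and with the hairpin 1 higher (TEK, 0.45, adjusted p = 0.000526) and 1 lower. Of 7 measured epithelial markers, 4, 4 and 3 lay below 6.75 in the 3 groups, with array means of 6.96 to 7.01, 6.76 to 6.85 and 6.92 to 6.97. In OIS 2 of these were lower, KRT19 by a log2 change of -1.10, and with the hairpin 2 were higher, KRT19 (0.86, adjusted p = 0.000321) and CLDN4 (0.38, adjusted p = 0.0013). The part of these shifts in the results below was not tested. ARID1B itself, a subunit of the SWI/SNF remodelling complex, stood at 8.93, 8.85 and 8.94 in vector-4OHT, at 8.63, 8.96 and 8.77 in vector+4OHT and at 8.07, 7.96 and 8.13 in shARID1B+4OHT cells. All 3 hairpin arrays were below all others, with a log2 change of -0.73 from vector+4OHT (adjusted p = 0.000179, limma).

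Replication genes were broadly lower in OIS. Of the 53, 34 were lower in vector+4OHT than in vector-4OHT cells, 3 were higher (RPA2, CCNE1 and E2F7) and 16 were not called, with calls made in limma over all genes at adjusted p-values under 0.05. Among all genes tested, 17.6% were called lower and 14.9% higher. The median log2 change of the 53 was -0.42, a level 0.747 of that in non-senescent cells, against -0.01 over all genes. A fall of at least 2-fold was measured for 8 members, of which GINS2, MCM6 and CHAF1B kept a mean above 6.75 and CCNE2, POLE2, CLSPN, PRIM1 and EXO1 did not. In bulk RNA, fewer cells in S phase and less of each RNA per cell cannot be told apart. Of the 34 lower genes, 30 were called with any 1 array left out, the others being CDC6, POLD1, POLD2 and RPA1.

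**Figure D2:**
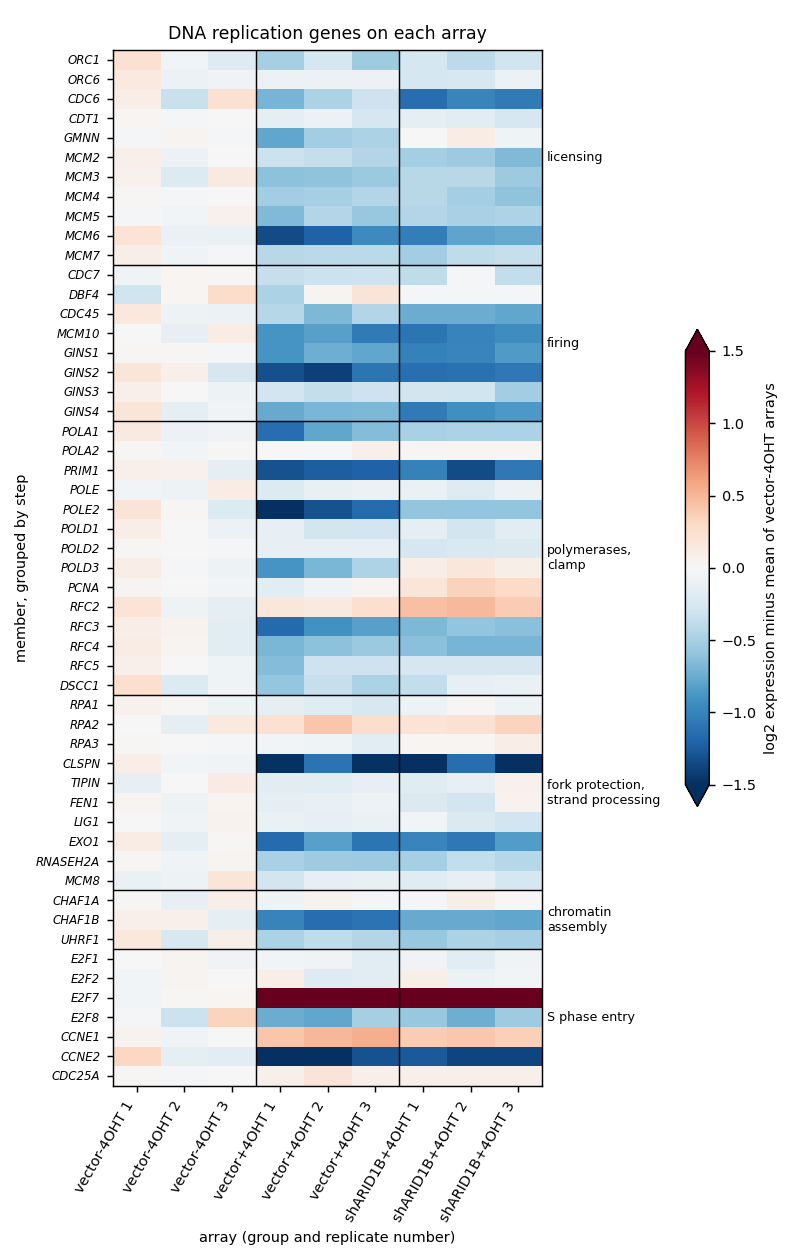
Log2 value of each of the 53 members on each of the 9 arrays, shown as the difference from its vector-4OHT mean (colour scale, log2 units), with genes in rows ordered by step and arrays in columns by group. Most rows are lower on the 6 arrays with 4OHT, and E2F7 is higher by 2.21 in vector+4OHT cells, past the end of the colour scale.

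Low signal limits some of these genes. The mean of 7 members lay below 6.75 in every group (ORC1, ORC6, CDC7, DBF4, DSCC1, E2F2 and E2F8), and 8 more fell below it in vector+4OHT cells (CDT1, MCM10, POLA1, PRIM1, POLE2, CLSPN, EXO1 and CCNE2). With the hairpin CDC6 and CDC45 lay below it too. No detection calls were used here, and changes that reach or lie under 6.75 are differences of the deposited values, whose order in size is not to be read. Of the 34 genes lower in OIS, 4 lay below 6.75 in both groups and 7 in vector+4OHT cells alone. In all, 44 of the 53 passed a filter for values above 6.75 on at least 3 arrays. Equal values on all 3 arrays of a group were found for 5 members, whose measured spread is smaller for it (ORC6 and POLD2 in vector+4OHT, and DBF4, POLE2 and RFC5 in shARID1B+4OHT cells).

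Among the licensing genes, 9 of 11 were lower in OIS, with a median log2 change of -0.48. All 6 subunits of the MCM2-7 helicase were lower, with log2 changes from -1.17 (MCM6) to -0.37 (MCM2). MCM6 read 8.50, 8.19 and 8.19 in vector-4OHT cells, 6.95, 7.08 and 7.34 in vector+4OHT cells and 7.25, 7.50 and 7.54 in shARID1B+4OHT cells. Every array with 4OHT lay below every array without it, and the change in OIS was -1.17 (95% interval -1.43 to -0.91, adjusted p = 2.03e-05). GMNN encodes geminin, which blocks CDT1 and so prevents origins from being licensed again in the same cycle. It read 7.90, 7.96 and 7.90, then 7.14, 7.40 and 7.44, then 7.91, 8.03 and 7.86 in the same order of groups. It fell by 0.59 on the log2 scale in OIS (adjusted p = 0.000163), with no overlap between the arrays, and the shARID1B+4OHT arrays lay around the non-senescent ones. CDT1 itself changed by -0.16 (adjusted p = 0.0534) and ORC6 by -0.09 (adjusted p = 0.392), neither being called, while ORC1 was lower at -0.43 (adjusted p = 0.0083). CDT1 was called lower without vector+4OHT replicate 2 (adjusted p = 0.0377).

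CDC6, which helps to load the helicase, was the licensing gene that was lower in both steps of the design. It read 7.76, 7.33 and 7.89 in vector-4OHT, 6.97, 7.18 and 7.36 in vector+4OHT and 6.52, 6.67 and 6.60 in shARID1B+4OHT cells. The first pair of groups overlapped (7.33 against 7.36), while all hairpin arrays lay below all others. The log2 change was -0.49 in OIS (adjusted p = 0.0163) and -0.57 from vector+4OHT to shARID1B+4OHT (adjusted p = 0.0162). Against the non-senescent level shARID1B+4OHT cells differed by -1.06 (adjusted p = 0.000124), and their mean lay under 6.75. The call in OIS was lost without vector-4OHT replicate 1 (adjusted p = 0.0619) or 3 (0.0735) or vector+4OHT replicate 1 (0.0630). The call with the hairpin was lost when all probe sets were tested (0.0518) and without vector+4OHT replicate 2 (0.0557) or 3 (0.0545) or shARID1B+4OHT replicate 1 (0.0582) or 3 (0.0533).

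The firing genes had a median of -0.61 in OIS, with 7 of 8 lower and DBF4, the activator of CDC7, not called (log2 change -0.08, adjusted p = 0.801). All 4 subunits of the GINS complex, which is part of the active helicase, were lower. GINS2 read 9.38, 9.27 and 8.95 in vector-4OHT, 7.88, 7.80 and 8.10 in vector+4OHT and 8.06, 8.07 and 8.13 in shARID1B+4OHT cells. The arrays with 4OHT lay below those without it, at a log2 change of -1.27 in OIS (0.414 of the non-senescent level, adjusted p = 4.84e-06). GINS1 changed by -0.80, GINS4 by -0.70 and GINS3 by -0.32. MCM10, which acts at origins to start unwinding, read 6.90, 6.78 and 7.01, then 6.02, 6.08 and 5.84, then 5.80, 5.89 and 5.97 in the same order. That is a fall without overlap (-0.92, adjusted p = 6.51e-06) to values under 6.75. CDC45, the other partner of the active helicase, changed by -0.52 (adjusted p = 0.00052) and the kinase CDC7 by -0.33 (adjusted p = 0.0141).

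Of the 14 polymerase and clamp genes, 10 were lower in OIS and 4 were not called (POLA2, POLE, PCNA and RFC2), with a median of -0.44. POLE2, a subunit of the leading-strand polymerase epsilon, read 7.06, 6.89 and 6.66 in vector-4OHT, 5.24, 5.57 and 5.72 in vector+4OHT and 6.28 on all 3 shARID1B+4OHT arrays. The 3 groups did not overlap, the senescent one being lowest in the deposited values, though both 4OHT groups lay under 6.75. The change in OIS was -1.36 (95% interval -1.63 to -1.10, adjusted p = 7.63e-06). PRIM1, the catalytic subunit of primase, read 7.68, 7.67 and 7.46, then 6.30, 6.36 and 6.39, then 6.59, 6.26 and 6.53. It fell by 1.25 on the log2 scale in OIS (adjusted p = 1.41e-06), and the hairpin arrays overlapped the senescent ones. The catalytic subunits of polymerases epsilon and delta changed little, POLE by -0.13 (adjusted p = 0.139, not called) and POLD1 by -0.23 (adjusted p = 0.0259). The POLD1 call was lost without vector-4OHT replicate 1 (adjusted p = 0.0975) or 2 (0.0617) or vector+4OHT replicate 2 (0.0901) or 3 (0.0862), with the 6 compared arrays alone (0.0503) and with all probe sets (0.0550). The subunit POLD2 was called at -0.13 (adjusted p = 0.0425), a call that was lost with any of the 9 arrays left out (adjusted p 0.0568 to 0.1004). PCNA, the clamp that holds polymerases on DNA, was not called in OIS (-0.06, 95% interval -0.20 to 0.09, adjusted p = 0.593).

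The clamp loader opens PCNA and places it on DNA. Its subunits RFC3 (-0.96), RFC4 (-0.62) and RFC5 (-0.42) were lower in OIS, as was DSCC1 (-0.47) of the alternative loader. RFC3 read 8.63, 8.59 and 8.37 in vector-4OHT and 7.37, 7.63 and 7.72 in vector+4OHT cells, without overlap (adjusted p = 1.54e-05). RFC2 stood at 0.18 and was not called (adjusted p = 0.119). Without vector-4OHT replicate 1 it was called higher in OIS (0.29, adjusted p = 0.0054). With the hairpin it stood at 0.26 (adjusted p = 0.0590) and was called higher without that array (0.0120), with the 6 compared arrays (0.0199), with dim genes left out (0.0351), with array medians subtracted (0.0472) and with an intensity trend (0.0410).

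The fork and strand processing genes were divided in OIS, with 4 lower, 1 higher and 5 not called, and a median of -0.16. CLSPN encodes claspin, which carries the checkpoint signal at stalled forks. It read 6.93, 6.79 and 6.78 in vector-4OHT, 5.35, 5.73 and 5.36 in vector+4OHT and 5.28, 5.70 and 5.34 in shARID1B+4OHT cells. Both 4OHT groups lay well below the non-senescent arrays and overlapped each other (change in OIS -1.35, adjusted p = 9.42e-06). The nuclease EXO1 read 6.93, 6.68 and 6.84, then 5.66, 6.00 and 5.71, then 5.83, 5.74 and 5.98. The pattern was the same, with a change in OIS of -1.02 (adjusted p = 1.61e-05). RNASEH2A, the catalytic subunit of the enzyme that removes ribonucleotides from DNA, changed by -0.52 (adjusted p = 2.2e-05).

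Of the enzymes that finish the lagging strand, FEN1 and LIG1 were not called in OIS. DNA2, listed for fork and strand processing among the further replication genes, was lower (log2 change -0.26, adjusted p = 0.0387, limma). Its mean in vector+4OHT cells was 6.74, under 6.75. The flap nuclease FEN1 changed by -0.11 (95% interval -0.29 to 0.06, adjusted p = 0.34) and the ligase LIG1 by -0.10 (95% interval -0.25 to 0.04, adjusted p = 0.261). RPA coats single-stranded DNA, and each of its 3 subunits had another call. RPA1 was lower at -0.19 (adjusted p = 0.0214), RPA3 was not called (-0.09, adjusted p = 0.223) and RPA2 was higher. RPA2 read 7.21, 7.08 and 7.37 in vector-4OHT, 7.45, 7.63 and 7.49 in vector+4OHT and 7.43, 7.46 and 7.55 in shARID1B+4OHT cells. All arrays with 4OHT lay above those without it, by 0.30 in OIS (adjusted p = 0.013). The RPA2 call was lost without vector-4OHT replicate 2 (adjusted p = 0.0527) or vector+4OHT replicate 2 (0.0573). That of RPA1 was lost without vector-4OHT replicate 1 (0.0752) or 2 (0.0618) or vector+4OHT replicate 3 (0.0725), and with array medians subtracted (0.0703). TIPIN, of the fork protection complex (-0.15, adjusted p = 0.167), and MCM8, a helicase of recombination repair (-0.17, adjusted p = 0.143), were not called.

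Chromatin assembly factor 1 places histones on new DNA. Of its subunits CHAF1A and CHAF1B, CHAF1B alone was lower in OIS. RBBP4, listed for chromatin assembly among the further replication genes, was lower too (log2 change -0.34, adjusted p = 0.000892, limma). With the hairpin RBBP4 was higher than in vector+4OHT cells (0.29, adjusted p = 0.0067). CHAF1B read 8.27, 8.28 and 8.05 in vector-4OHT, 7.20, 7.05 and 7.10 in vector+4OHT and 7.45, 7.45 and 7.42 in shARID1B+4OHT cells. The groups did not overlap, and the fall in OIS was to 0.472 of the non-senescent level (log2 change -1.08, adjusted p = 5.39e-07). CHAF1A was not called, at -0.01 (95% interval -0.16 to 0.13, adjusted p = 0.926). UHRF1, which brings maintenance DNA methylation to new strands, read 9.11, 8.70 and 9.03, then 8.47, 8.57 and 8.51, then 8.38, 8.47 and 8.44. Its non-senescent arrays were all higher than the rest, with a change in OIS of -0.43 (adjusted p = 0.0035). The UHRF1 probe set that was not kept lay under 6.75 on every array and showed no such fall. It read 6.51, 6.51 and 6.44 in vector-4OHT and 6.59, 6.51 and 6.43 in vector+4OHT cells.

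Of the 7 S phase entry genes, 2 were higher, 2 lower and 3 not called in OIS. E2F7, an atypical E2F that represses E2F target genes, read 9.13, 9.20 and 9.20 in vector-4OHT, 11.31, 11.48 and 11.35 in vector+4OHT and 10.82, 10.82 and 10.81 in shARID1B+4OHT cells. The 3 groups were far apart, and E2F7 rose 4.62-fold in OIS (log2 change 2.21, 95% interval 2.09 to 2.33, adjusted p = 3.83e-10). E2F8, the other atypical E2F, was lower at -0.68 (adjusted p = 0.0033), at values under 6.75 in all groups. The cyclins E, which activate CDK2 at the start of S phase, were called in opposite directions. CCNE1 read 8.39, 8.28 and 8.34, then 8.76, 8.84 and 8.88, then 8.71, 8.74 and 8.69, a 1.4-fold rise in OIS (adjusted p = 3.02e-05). CCNE2 read 7.47, 7.01 and 7.00, then 5.50, 5.60 and 5.86, then 5.91, 5.79 and 5.78, a fall to values under 6.75 (log2 change -1.51, adjusted p = 4.42e-06). For both cyclins every array with 4OHT lay on the same side of every array without it. E2F1 (-0.08, adjusted p = 0.318), E2F2 (-0.08, adjusted p = 0.521) and CDC25A (0.12, adjusted p = 0.103) were not called.

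**Figure D3:**
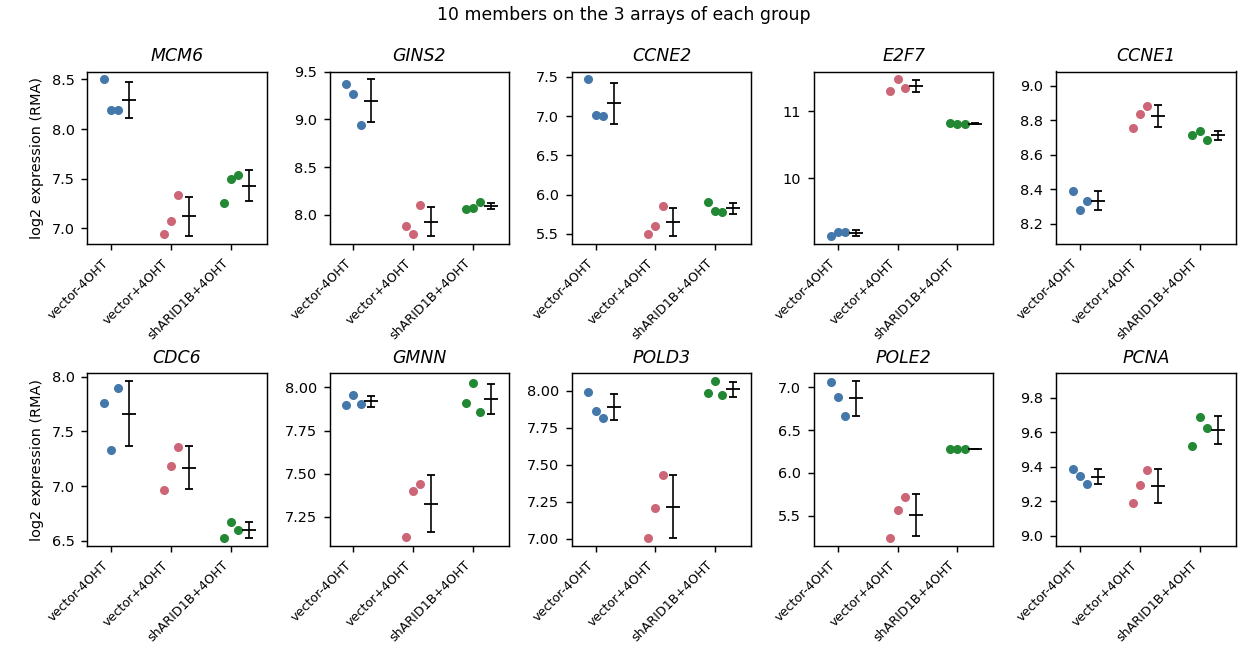
Log2 value (y axis, a range of its own in each panel) of 10 members, 1 panel per gene, with points for the 3 arrays of each group and, beside them, the mean with its SD. POLE2, POLD3 and GMNN lie lowest in vector+4OHT cells, and E2F7 lies highest there. Both 4OHT groups of POLE2 lie under 6.75.

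With the ARID1B hairpin, most replication genes, like most of all genes tested, were not called different from their senescent level. Comparing shARID1B+4OHT with vector+4OHT cells, 7 of the 53 were higher (POLD3, POLE2, GMNN, POLA1, RFC3, PCNA and CHAF1B), 2 were lower (CDC6 and E2F7) and 44 were not called. Among all genes tested, 9.63% were called higher and 6.09% lower, and 15522 of 18417 were not called. The members' median change was 0.04, against -0.02 over all genes. This comparison shares its vector+4OHT arrays with the one above, so a low array there raises the second change as it lowers the first. Replicate 1 of vector+4OHT alone held the lowest value of its group for 32 of the 53 genes, with ties for 4. The largest such counts in the other groups were 25 (vector-4OHT replicate 2) and 22 (shARID1B+4OHT replicate 1). The same count over all genes is not given here, so a trait of the array and one of these genes cannot be told apart. Without vector+4OHT replicate 1, 5 members were called higher, POLA1 and RFC3 being lost, and 2 lower. The markers KRT19, CLDN4, TEK and DCN were higher in this comparison too. COL1A1 (-0.21), FAP (-0.41) and PECAM1 (-0.28, at values under 6.75) were called lower. The part of these markers in the comparison was not tested.

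Of the 7 higher genes, 5 were polymerase and clamp genes, a step with a median change of 0.21, and 2 of these (POLA1 and POLE2) lay under 6.75 in both groups compared. POLD3, an accessory subunit of polymerase delta, read 7.99, 7.87 and 7.82 in vector-4OHT, 7.01, 7.21 and 7.43 in vector+4OHT and 7.99, 8.07 and 7.97 in shARID1B+4OHT cells. The hairpin arrays were all above the senescent ones, by 1.73-fold (log2 change 0.79, 95% interval 0.59 to 1.003, adjusted p = 0.000291). Against non-senescent cells POLD3 differed by 0.12 and was not called (95% interval -0.09 to 0.33, adjusted p = 0.387). POLE2 was called higher (adjusted p = 0.0017), but both groups lay under 6.75 and its hairpin arrays were equal, so no fold is given. It still differed from the non-senescent level by -0.59 (adjusted p = 0.0031).

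POLA1, the catalytic subunit of polymerase alpha, read 7.34, 7.12 and 7.14 in vector-4OHT, 6.05, 6.42 and 6.55 in vector+4OHT and 6.71, 6.73 and 6.72 in shARID1B+4OHT cells. The groups did not overlap, but both 4OHT groups lay under 6.75. The change with the hairpin was 0.38 (adjusted p = 0.0404). It fell to 0.24 without vector+4OHT replicate 1 and was then not called (adjusted p = 0.0671), nor was it without 6 of the 8 other arrays (adjusted p 0.0545 to 0.1159) or with the 6 compared arrays alone (0.0763). RFC3 read 7.86, 7.94 and 7.91 in shARID1B+4OHT cells, above all senescent arrays, by 0.33 (adjusted p = 0.0359). This call was lost without vector+4OHT replicate 1 (change 0.23, adjusted p = 0.0928) and without 5 of the 8 other arrays (adjusted p 0.0504 to 0.1217). PCNA read 9.39, 9.35 and 9.30, then 9.19, 9.30 and 9.38, then 9.52, 9.69 and 9.63 in the order of the groups. Its hairpin arrays were above all others, with a change of 0.32 from vector+4OHT (1.25-fold, adjusted p = 0.0062) and of 0.27 from vector-4OHT cells (adjusted p = 0.0077).

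Outside the polymerase step, GMNN was higher with the hairpin by 1.52-fold (0.61, adjusted p = 0.000564) and did not differ detectably from non-senescent cells (0.01, 95% interval -0.16 to 0.19, adjusted p = 0.923). CHAF1B was higher by 0.32 (adjusted p = 0.0091) and still differed from vector-4OHT cells by -0.76 (adjusted p = 7.9e-06). E2F7 was lower with the hairpin, at 0.677 of its senescent level (-0.56, adjusted p = 8.48e-05), which left it 3.12-fold above non-senescent cells (adjusted p = 3.72e-09). CDC6 was the other lower gene, as described above. None of the 6 MCM2-7 subunits was called, with changes from -0.20 (MCM2, adjusted p = 0.0544) to 0.31 (MCM6, 95% interval 0.05 to 0.57, adjusted p = 0.114). MCM2 was called lower without vector+4OHT replicate 3 (adjusted p = 0.0480) or vector-4OHT replicate 2 (0.0499), and with dim genes left out (0.0324). MCM6 was called higher without vector+4OHT replicate 3 (0.0376).

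None of the 8 firing genes was called with the hairpin, and their median change was -0.07, against -0.02 over all genes. On each array the median over the 8, set against the vector-4OHT mean, was -0.61, -0.68 and -0.56 in vector+4OHT and -0.88, -0.83 and -0.82 in shARID1B+4OHT cells. These medians did not overlap, although GINS2 (0.16), CDC7 (0.07) and DBF4 (0.05) had changes above 0. A median over 8 genes is set by the middle ones, so this shift does not describe the whole step. By group means these were CDC45 (-0.52 in vector+4OHT and -0.75 in shARID1B+4OHT cells) and GINS4 (-0.70 and -0.95). Over the 14 polymerase and clamp genes the same medians were -0.61, -0.32 and -0.38 in vector+4OHT and -0.26, -0.24 and -0.19 in shARID1B+4OHT cells, with 5 of the 14 genes called higher. Over the licensing genes they were -0.52, -0.43 and -0.44 against -0.42, -0.42 and -0.47 and overlapped. These are descriptions of lists, and the difference between steps was not tested. Among the firing genes, CDC45 (-0.24, adjusted p = 0.0757) and GINS4 (-0.25, adjusted p = 0.0712) missed the threshold. CDC45 was called lower without vector-4OHT replicate 1 (adjusted p = 0.0432) or vector+4OHT replicate 2 (0.0281), and GINS4 without vector-4OHT replicate 1 (0.0265).

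**Figure D4:**
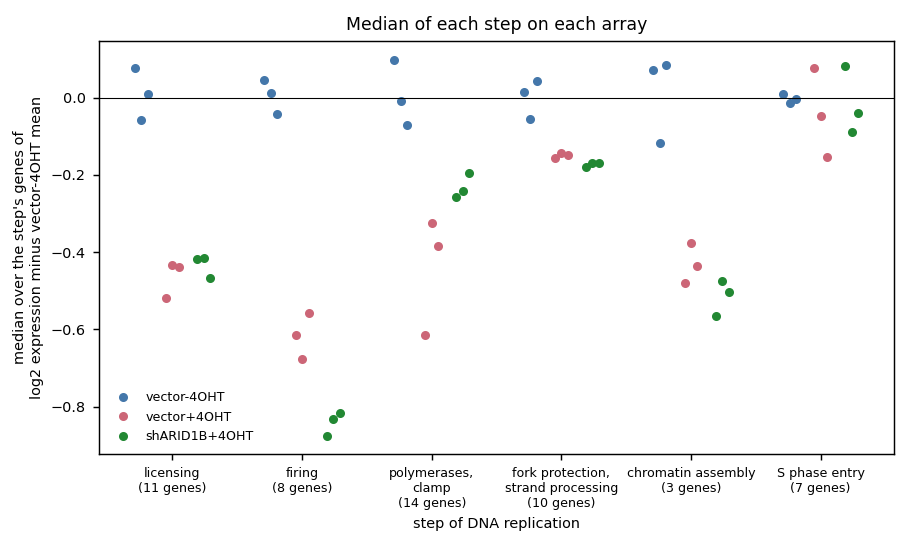
Median over the genes of each step of the difference from the vector-4OHT mean (y axis, log2), 1 point per array, for the 3 groups. In shARID1B+4OHT cells the median of the firing genes lies at -0.88 to -0.82, although none of the 8 was called against vector+4OHT, and that of the polymerase and clamp genes at -0.26 to -0.19. By group means the middle firing genes are CDC45 and GINS4. The medians were not tested.

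Against non-senescent cells, the replication genes of shARID1B+4OHT cells were mostly lower. Of the 53, 30 were lower, 5 higher (E2F7, RFC2, CCNE1, PCNA and RPA2) and 18 not called, while 15.9% of all genes were called lower and 15.6% higher. The median change was -0.26, against -0.03 over all genes. All 6 MCM2-7 subunits were lower, with a median of -0.49, as were all 4 GINS subunits, with a median of -0.95. GINS2 was lower by a log2 change of -1.11, at a mean above 6.75. CLSPN, CCNE2, PRIM1, CDC6 and MCM10 were lower too and lay under 6.75 with the hairpin, so their changes (-1.40 to -1.01) have no order. RFC2 stood at 0.44 (adjusted p = 0.0016). With 1 array left out in turn, 26 of the 30 lower calls and 4 of the 5 higher calls held throughout, those lost being ORC1 (5 of the 9 arrays, adjusted p 0.0631 to 0.1291), CDC7 (8 arrays, 0.0528 to 0.1681), CDT1 (4 arrays, 0.0612 to 0.1209), RFC5 (6 arrays, 0.0618 to 0.1403) and RPA2 (4 arrays, 0.0654 to 0.1139). ORC6, POLD1, FEN1 and LIG1 were each called lower when 1 or other of the arrays was left out (adjusted p 0.0096 to 0.0418). All 3 comparisons share arrays pairwise, so their values are set side by side and not compared as independent results.

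**Figure D5:**
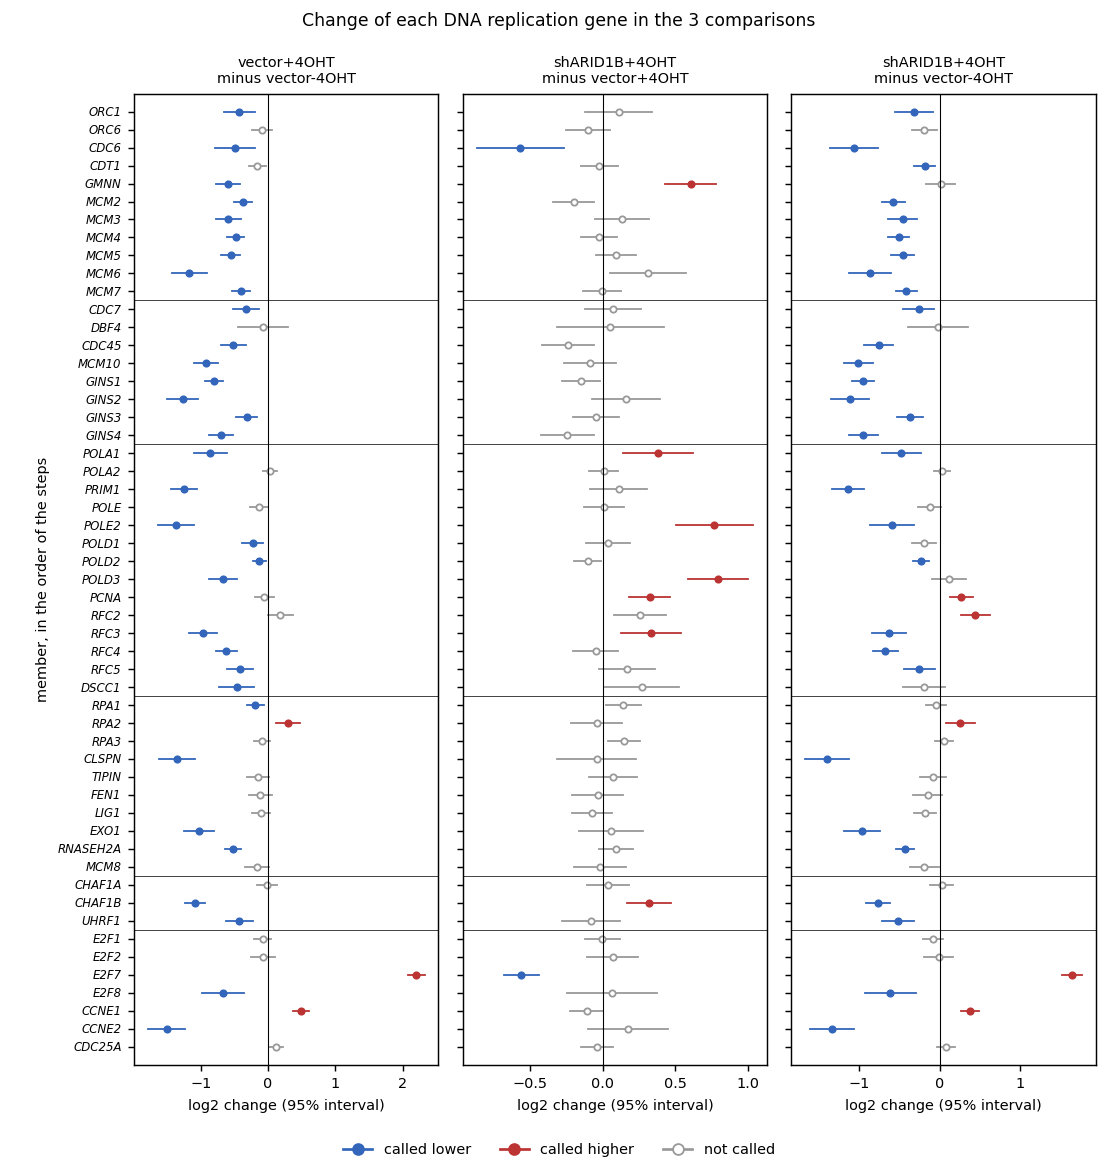
Log2 change of each member (x axis, a scale of its own in each panel) in OIS, with the hairpin against vector+4OHT, and with the hairpin against vector-4OHT, with 95% intervals. Lines part the steps, and filled points are called genes. In OIS 34 genes are called lower and 3 higher, with the hairpin 7 are called higher and 2 lower, and against vector-4OHT 30 are called lower and 5 higher.

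A further 51 replication genes, listed for the same steps and all measured, are set beside them. In OIS 21 were lower, 5 higher and 25 not called, with a median of -0.13. Over all genes tested, 17.6% were called lower and 14.9% higher. The largest falls were in TOP2A, the topoisomerase that untangles copied DNA (-1.65, adjusted p = 4.27e-07), CCNA2, which encodes cyclin A2 of S phase (-1.48, adjusted p = 5.05e-08), and DTL, which directs CDT1 to degradation (-1.37, adjusted p = 2.23e-06). The rises were in CDK2, the kinase that cyclins E and A activate (0.9998, adjusted p = 1.53e-07), POLD4, a small subunit of polymerase delta (0.77, adjusted p = 1.81e-06), LRWD1, which binds the origin recognition complex (0.47, adjusted p = 0.000114), RNASEH2C (0.36) and POLE3 (0.15). CDK2 read 9.38, 9.33 and 9.26 in vector-4OHT, 10.28, 10.38 and 10.31 in vector+4OHT and 10.38, 10.43 and 10.34 in shARID1B+4OHT cells. TOP2A read 10.12, 9.84 and 9.90, then 8.09, 8.32 and 8.49, then 8.65, 8.73 and 8.73. Neither gene's arrays with 4OHT overlapped those without it.

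With the hairpin, 11 of the 51 were higher, 2 lower and 38 not called, with a median of 0.07. Over all genes tested, 9.63% were called higher and 6.09% lower. The largest rises were in RFC1, the large subunit of the clamp loader (0.59, adjusted p = 0.0011), FBXO5, which restrains the anaphase-promoting complex (0.43, adjusted p = 0.0229), and TOP2A (0.40, adjusted p = 0.0204). RFC1 read 9.76, 9.84 and 9.59 in vector-4OHT, 8.89, 9.07 and 9.22 in vector+4OHT and 9.61, 9.65 and 9.68 in shARID1B+4OHT cells, where the hairpin arrays overlapped the non-senescent ones and lay above all senescent ones. The lower genes were RNASEH2C (-0.24, adjusted p = 0.0303) and POLE4, a small subunit of polymerase epsilon (-0.22, adjusted p = 0.0241). Without vector+4OHT replicate 1 the number higher was 6, and FBXO5 (adjusted p = 0.0798), TOP2A (0.0534), RNASEH2C (0.0771) and POLE4 (0.0628) were not called. Leaving out another array of either 4OHT group also cost some of these calls, with adjusted p from 0.0519 to 0.1168, and DTL was called lower without vector+4OHT replicate 1 (-0.31, adjusted p = 0.0145). Against non-senescent cells 16 of the 51 were lower and 8 higher, with a median of -0.09. The shares over all genes were 15.9% lower and 15.6% higher.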

How the data were processed

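The deposited values are log2 expression per probe set, and per the labels the authors used oligo, limma and RMA, which corrects background, quantile-normalises arrays and summarises probes. Versions and genome build are not given in the sources used here. The labels' labelling text is that of Affymetrix whole-transcript arrays, whereas their extraction text names an Illumina kit. Of 33297 probe sets, the 19460 with exactly 1 symbol were used, and the one with the highest mean was kept for the 769 genes with several (CLSPN and UHRF1 among the members). limma 3.58.1 in R 4.3.3 (lmFit and eBayes, checked on simulated data) was fitted to all 9 arrays with group as the only term, with 2-sided tests and Benjamini-Hochberg adjustment over 18417 genes in each of 3 comparisons. The number of arrays limits the precision (6 residual degrees of freedom, median residual SD 0.0843), and with 3 arrays a group the smallest p of an exact permutation test is 0.1. The members, the lists, the promoter words and the naming rule were chosen with earlier results of these data known. Values on every array are given for the 2 called members per step with the largest change in OIS, all members called with the hairpin or higher in OIS, and ARID1B, and of the other replication genes up to 3 per direction in OIS and with the hairpin were named. Further genes are named for completeness. Alternatives were the replicate block, the 6 compared arrays, a filter on dim genes, all probe sets, averaged probe sets per gene, subtracted array medians, an intensity trend with a robust prior, the methods' t-test and leaving out each array.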

Additional observations from a re-analysis of the deposited data

How the results depend on the processing

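No change reversed its direction among those called. Of the 34 members lower in OIS, 25 were called in every alternative that tested them, as were 2 of the 3 higher. Among the 25, CDC7, POLE2 and EXO1 were left out by the filter on dim genes and so were not tested in that alternative. Of the 7 members higher with the hairpin, POLD3 and CHAF1B were called in every alternative, and of the 2 lower, E2F7. Same-numbered deviations correlated at -0.26 to 0.32, with 1 of 9 pairs above 0.1. Between vector+4OHT and shARID1B+4OHT arrays they correlated at 0.32, 0.08 and 0.07. With 3 arrays a group these values cannot settle whether replicate numbers pair the samples. With the replicate block 33 members were lower and 3 higher in OIS, and 2 lower and 5 higher with the hairpin, while the other replication genes lower with the hairpin went from 2 to 0. Members lower with the hairpin numbered 2, against 5 with dim genes left out, 1 with all probe sets and 7 in the methods' t-test before adjustment, and members higher numbered 7, against 2 in that test after Benjamini-Hochberg adjustment. Other replication genes lower with the hairpin numbered 1 with the 6 compared arrays or with all probe sets and 0 in that test after adjustment, and those higher numbered 7 with all probe sets and 5 in that test, against 11. With each array left out, the members' median in OIS ranged from -0.44 to -0.35 (lowest in size without vector-4OHT replicate 1), members lower with the hairpin from 1 (without shARID1B+4OHT replicate 1 or 3) to 4 (without vector-4OHT replicate 1), members higher from 5 to 8, and other replication genes lower from 0 to 2 and higher from 6 to 11. In OIS 30 to 33 members were lower and 2 to 4 higher, and against non-senescent cells the hairpin group had 26 to 30 lower and 4 to 5 higher. The causes were not tested. Low signal limits the 7 members below 6.75 in all groups, for which a true fall may not be measurable.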
